A study of Mus musculus with 8 samples.

Results

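Trophoblast is the first epithelium of the mammalian embryo, and 9 genes that mark it were followed across mouse embryonic stem cells (ESCs) and embryoid bodies, with the zinc finger gene Zfp462 intact or knocked out. The set was chosen by gene symbol, and each symbol matched 1 row of the 55401 genes in the deposited count table. It holds 5 transcription factors (Tfap2a, Tfap2c, Cdx2, Gata2 and Gata3) and 4 keratins of simple epithelia (Krt7, Krt8, Krt18 and Krt19). In the blastocyst, CDX2 and GATA3 take part in setting up the outer layer, the trophectoderm, and the AP-2 protein encoded by Tfap2c is needed to maintain trophoblast. The keratins pair a type II protein (KRT7 or KRT8) with a type I protein (KRT18 or KRT19) into the filaments of that layer. None of these genes belongs to trophoblast alone: Tfap2c also serves primordial germ cells, GATA2 and GATA3 serve blood and other tissues, and simple keratins are made by extraembryonic endoderm and by liver as well.

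The libraries came from R1, a mouse ESC line, in 4 groups of 2. Control ESCs (labelled CTL, genotype WT) and Zfp462 knockout ESCs were grown on gelatin in serum medium with LIF, the cytokine that holds these cells undifferentiated, and stand for day 0. Control and knockout embryoid bodies (EBs) are aggregates that differentiate in suspension, and they were made from single-cell suspensions in Petri dishes and taken after 3 days. The design text speaks of stable knockout lines, but the sources used here give neither the edit, the number of clones, the medium of the EBs nor whether replicates are separate cultures, so the p-values reflect no more than how far these samples lie apart, and that spread could be technical. RNA was measured by poly(A)-selected RNA sequencing.

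Library totals ran from 12119763 to 16228426 gene counts, and 17125 genes had enough counts to be tested. Levels are given as CPM, each count as a share of the scaled library size. Zfp462 stood at 183.2 and 196.9 CPM in control against 104.0 and 106.6 CPM in knockout ESCs, and at 153.5 and 130.3 against 102.0 and 102.5 CPM in EBs. Both knockout libraries thus lay below both controls at each stage, although the RNA remained at more than 100 CPM. The stem cell factors Pou5f1, Sox2 and Nanog were at 128 CPM or more in every library, and Fgf5, a gene of the formative epiblast, went from 1.55 to 3.06 CPM in ESC libraries to between 31 and 64.3 CPM in EB libraries. Sox2 was nevertheless lower in knockout ESCs (326 and 237 CPM) than in control ESCs (568 and 617 CPM). Pou5f1 was lower as well (346 and 279 against 490 and 474 CPM). Of 8 genes of stem cell identity, 4 fell and 2 rose in knockout ESCs (edgeR's quasi-likelihood test, adjusted p below 0.05). Whether this had a part in the results below was not tested. Knockout ESC replicate 2 differed from replicate 1 along a trend with GC content (r = 0.691 across genes averaging 5 CPM or more, which are not independent replicates; from -0.043 to 0.00162 in the other groups). In replicate 1 of the knockout EBs, liver transcripts were abundant, with 2307 CPM summed over 18 liver genes against 6.82 to 33.4 CPM in the other 7 libraries. Results of the 9 genes that rest on either library are given with and without it, and so are calls of other named genes that were lost without the library of their own comparison.

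Krt8, Krt18, Krt19 and Tfap2c were well expressed and the other 5 genes were scarce. Per kilobase of exon, the scale used wherever genes are compared with one another, control ESCs held 30.6 ± 3.4 CPM per kb of Krt18, 27.1 ± 4.2 of Krt8, 15.9 ± 0.58 of Tfap2c and 8.2 ± 0.67 of Krt19 (mean ± SD, n = 2). The ranges of Krt18 and Krt8 overlapped there, although Krt18 was above Krt8 within each library (28.2 against 24.1 and 33.0 against 30.0 CPM per kb). Next came Gata2 at 0.628 ± 0.078, Krt7 at 0.56 ± 0.0085 and Tfap2a at 0.531 ± 0.095 CPM per kb, where the range of Tfap2a overlapped those of both others, and last Gata3 at 0.159 ± 0.0066 and Cdx2 at 0.131 ± 0.07 CPM per kb, which overlapped. Krt18, Krt8 and Krt19 led in that order in the other 3 groups, followed by Tfap2c: knockout ESCs had 69.7 ± 0.92, 64.7 ± 0.6, 15.9 ± 0.46 and 3.92 ± 0.56 CPM per kb of these 4 genes. Control EBs had 51.9 ± 0.8, 34.0 ± 1.6, 9.43 ± 3.2 and 2.72 ± 0.31, and EBs with the knockout 69.7 ± 7.7, 43.8 ± 2.3, 15.1 ± 0.6 and 2.42 ± 0.15 CPM per kb. None of these neighbours overlapped within a group. The 5 scarce genes stayed between 0.226 and 0.714 CPM per kb in the means of those groups, apart from Cdx2 at 0.212 in control EBs. Among all genes tested, Krt18 lay at percentile 89.4 of per-length level in control ESCs, Krt8 at 87.8 and Tfap2c at 79.7. Gata3 lay at percentile 5.1, and Tfap2a, Gata2 and Krt7 between 16.8 and 19.0. With the knockout Krt18 and Krt8 stood at percentiles 96.3 and 95.8 in ESCs, and Tfap2c at 49.5. The deposited exon length was 7049 bases over 28 exon intervals for Krt7 and 4903 bases over 57 for Tfap2a. That of Krt8 was 1958 bases over 9. A length summed over many intervals can exceed that of any 1 transcript, which would lower the level and rank of such a gene on this scale.

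**Figure D1:**
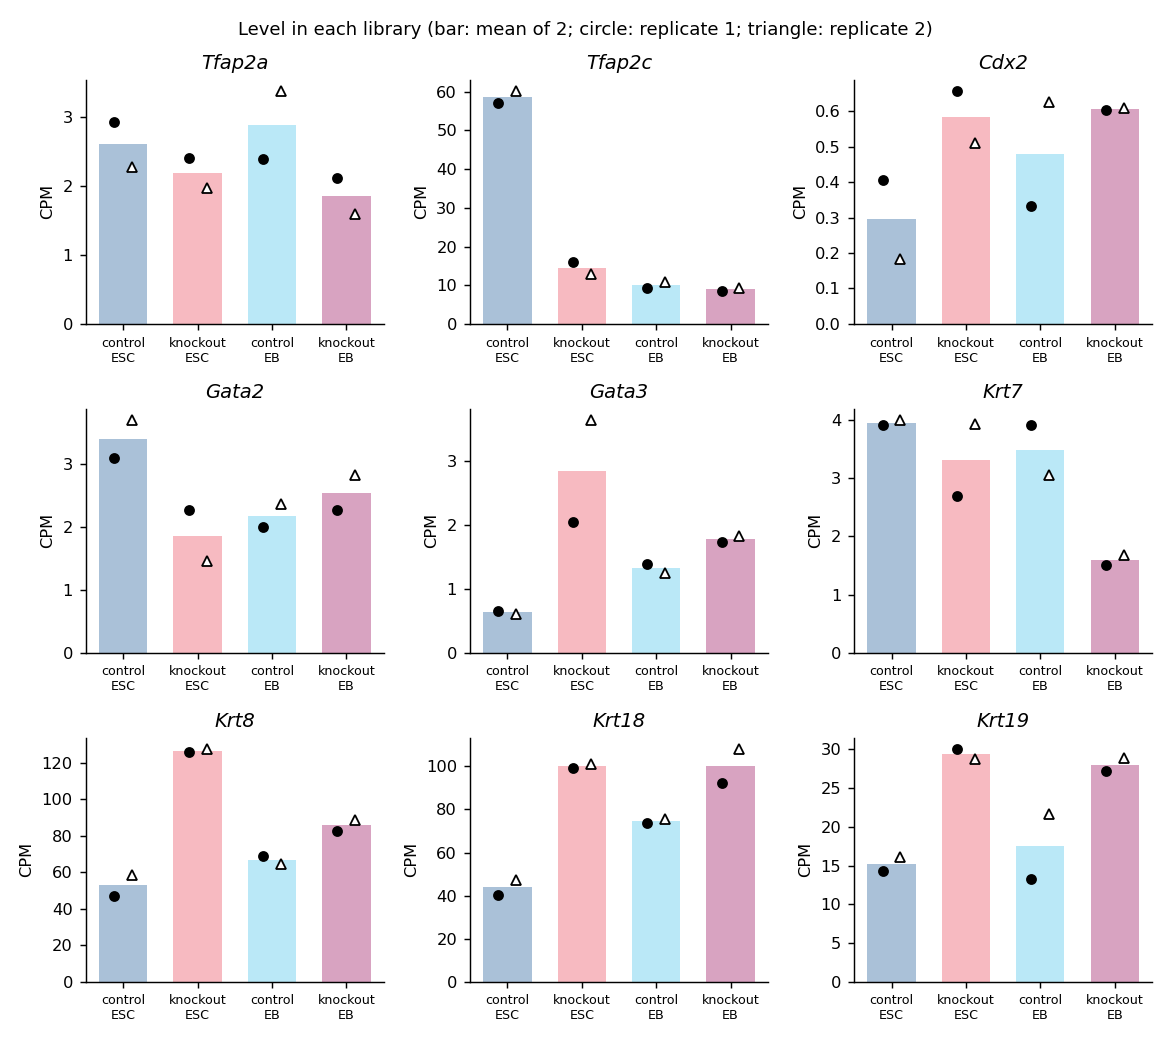
CPM of each of the 9 genes in each library, with 1 panel a gene and a linear axis from 0; bars are means of 2 libraries, circles replicate 1 and triangles replicate 2. Tfap2c is near 60 CPM only in the 2 control ESC libraries (57.08 and 60.08 CPM) and under 16 CPM in the other 6, while Krt8, Krt18 and Krt19 are higher in both knockout libraries than in both controls at each stage.

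Of the 9 genes, 8 passed the filter on low counts and Cdx2 did not. In knockout against control ESCs, 4 rose (Gata3, Krt8, Krt18 and Krt19), 1 fell (Tfap2c) and 3 did not pass the test (Tfap2a, Gata2 and Krt7). Over all genes tested, 8.3% rose and 6.2% fell in that comparison. In knockout against control EBs, 1 rose (Krt18), 0 fell and 7 did not pass by edgeR's quasi-likelihood test. DESeq2 also called 1 and 0, and 3 higher and 1 lower had an unadjusted p below 0.05. Of all genes, 6.8% were called there, with 4.75% higher and 2.04% lower. From ESCs to EBs, 1 rose (Krt18) and 1 fell (Tfap2c) in control cells, where 8.6% of all genes rose and 9.63% fell. In knockout cells 0 rose (0 by DESeq2 and 0 at an unadjusted p below 0.05 as well) and 2 fell (Tfap2c and Krt8), beside 8.23% and 7.11% of all genes. With the GC trend of each library removed, the calls over all genes split otherwise, with 1852 higher and 2257 lower in place of 1421 and 1062 for the knockout in ESCs, and 1221 and 1756 in place of 814 and 350 in EBs. The median log2 change of the 8 genes was 0.35, 0.29, 0.17 and -0.4 in these 4 comparisons, and that of all genes lay between -0.03 and 0.0. The difference between the 2 knockout effects was called for 3 members, 1 higher (Tfap2c) and 2 lower (Krt8 and Krt18), where 1.38% of all genes were called, 0.742% higher and 0.642% lower. The comparisons share libraries: control ESCs serve the knockout comparison in ESCs and the stage comparison in control cells, for example, so they are not independent of one another.

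**Figure D2:**
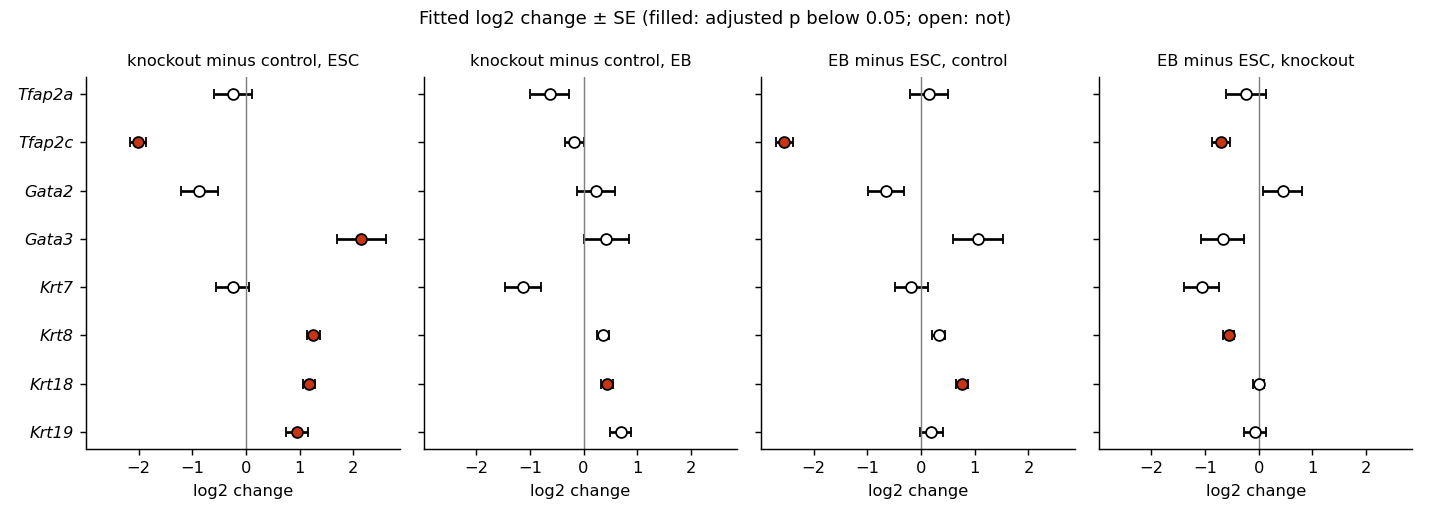
Fitted log2 change with its SE for the 8 tested genes in 4 comparisons on a shared axis; filled points passed the test (adjusted p below 0.05) and open points did not. Tfap2c lies at -2.02 for the knockout in ESCs and at -2.55 for control differentiation, while Krt8, Krt18 and Krt19 lie between 0.95 and 1.25 for the knockout in ESCs.

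The AP-2 factors were Tfap2c and Tfap2a. Tfap2c stood at 57.08 and 60.08 CPM in the control ESC libraries and at 15.9 and 12.96 CPM in those with the knockout. Among EBs it was at 9.216 and 10.82 CPM (control) and at 8.51 and 9.283 CPM (knockout). Both control ESC libraries were far above the other 6, and knockout ESCs lay between them and all 4 EB libraries. The change with knockout in ESCs was a log2 value of -2.02 ± 0.15 (SE throughout for log2 changes; adjusted p = 1.94e-05), to 0.246 of the control level, and 120 of the 17125 genes had a lower log2 change. Control differentiation lowered Tfap2c by a log2 change of -2.55 ± 0.16 (adjusted p = 5.42e-06). In knockout cells the change from ESCs to EBs was -0.7 ± 0.16 (adjusted p = 0.0176), a call lost without either control ESC library (0.058 and 0.0589), without either knockout EB library (largest adjusted p 0.166) and with only the knockout groups fitted (0.102). In EBs the knockout difference was -0.17 ± 0.17 (adjusted p = 0.62) and the libraries overlapped. The difference between the knockout effects at the 2 stages was itself tested, and was 1.85 ± 0.22 (EB effect minus ESC effect, adjusted p = 0.00624). That call was lost without any 1 of the 4 control libraries, with the estimate between 1.72 and 2.03 whichever library was left out. Over all genes, those 4 fits called few or none for this difference. The fits without 1 knockout library also leave 1 library in a group, and they kept the Tfap2c call. Why the call was lost was not tested.

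Tfap2c is also a factor of primordial germ cells, and of 5 genes of that lineage 3 fell in knockout ESCs and 2 did not pass. The log2 change was -1.22 ± 0.14 for Prdm1, a repressor that starts the germ cell programme, -1.43 ± 0.19 for Dppa3 and -2.23 ± 0.56 for the RNA-binding regulator Nanos3. Without knockout ESC replicate 2 the number was 2, since Nanos3 no longer passed (-2.43, adjusted p = 0.0531). In control differentiation 4 of the 5 fell. The list also had calls in the other direction. Prdm14 rose in knockout EBs (0.81 ± 0.21, adjusted p = 0.0489), a call lost without knockout EB replicate 1. From ESCs to EBs in knockout cells, where Tfap2c fell, Dppa3 rose (0.65 ± 0.2, adjusted p = 0.0482) and the other 4 did not pass. The Dppa3 call was likewise lost without knockout EB replicate 1. The summed level of the 5 was 111 and 115 CPM in control ESCs and 59.9 to 70.1 CPM in the other 6 libraries. Whether this had a part in the Tfap2c result was not tested. In bulk RNA, fewer cells of a kind and less RNA in each cell cannot be told apart, here and in what follows.

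Tfap2a, an AP-2 factor of surface ectoderm, neural crest and trophoblast, was scarce throughout. ESCs held 2.931 and 2.273 CPM (control) and 2.406 and 1.965 CPM (knockout), and EBs held 2.387 and 3.372 CPM (control) and 2.109 and 1.598 CPM (knockout). The ESC groups overlapped, while both knockout EB libraries lay below both control EB libraries. None of the 5 comparisons passed the test, with log2 differences of -0.24 ± 0.36 in ESCs (adjusted p = 0.713) and -0.63 ± 0.36 in EBs (adjusted p = 0.359). The family member Tfap2b had at most 0.163 CPM in any library.

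Cdx2, a homeobox factor of trophectoderm and later of gut, was close to the limit of detection. It had 5 and 3 counts in control ESCs, 9 and 7 in knockout ESCs, 5 and 8 in control EBs, and 8 and 8 in knockout EBs. Each knockout ESC library had more counts than either control, but no difference was detectable at this depth. Without the filter on low counts the log2 difference in ESCs was 1.0 ± 0.92 (adjusted p = 0.738), and in EBs it was 0.34 ± 0.88 (adjusted p = 0.97).

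Of the GATA factors, Gata3 rose in knockout ESCs and Gata2 did not pass the test. Gata3, which acts with Cdx2 in trophectoderm, had 8 and 10 counts (0.6514 and 0.6143 CPM) in control ESCs and 28 and 50 counts (2.042 and 3.639 CPM) with the knockout. EBs held 1.392 and 1.255 CPM (control) and 1.732 and 1.826 CPM (knockout), so control ESCs were below every other library. The rise with knockout in ESCs was 2.15 ± 0.45 on the log2 scale (adjusted p = 0.00953). It was 1.68 (adjusted p = 0.0473) without knockout ESC replicate 2, the higher library, and the call was lost without control ESC replicate 1 (0.0884) or control ESC replicate 2 (0.118). The difference in EBs was 0.42 ± 0.42 (adjusted p = 0.629), and the difference between the stages did not pass either (-1.73 ± 0.62, adjusted p = 0.271). Even at its highest Gata3 remained a low transcript, at percentile 19.2 per length in knockout ESCs. From ESCs to EBs its change was 1.06 ± 0.47 in control cells (adjusted p = 0.152) and -0.67 ± 0.4 in knockout cells (adjusted p = 0.287).

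Gata2, a factor of blood progenitors that is also made by trophoblast giant cells, had 3.094 and 3.686 CPM in control and 2.26 and 1.456 CPM in knockout ESCs, without overlap. EBs had 1.989 and 2.353 CPM without and 2.259 and 2.815 CPM with the knockout, and overlapped. Neither difference passed the test (ESCs -0.87 ± 0.35, adjusted p = 0.132; EBs 0.23 ± 0.35, adjusted p = 0.767). Among 9 relatives of the transcription factors (Tfap2b, Tfap2d, Tfap2e, Cdx1, Cdx4, Gata1, Gata4, Gata5 and Gata6), 5 were tested. The endodermal factors Gata4 (1.85 ± 0.18) and Gata6 (1.91 ± 0.2) rose in knockout ESCs and the other 3 did not pass. Gata4 and Gata6 rose in knockout EBs as well (0.89 ± 0.17 and 1.06 ± 0.19), and without knockout EB replicate 1 the values were 0.91 (adjusted p = 0.0575) and 1.16 (adjusted p = 0.032). Gata4 stood at 36.5 and 38.6 CPM in control and at 166 and 105 CPM in knockout ESCs. Both genes are also in the extraembryonic endoderm list described further on.

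Of the keratins, Krt8, Krt18 and Krt19 rose in knockout ESCs and Krt7 did not pass. In mm10, Krt8 (on the minus strand, 101996698 to 102004482) and Krt18 (on the plus strand, 102028180 to 102032027) are neighbours on chromosome 15 that face away from each other with 23697 bases between them, and Krt7 lies 566384 bases from Krt8 on the same chromosome (101411043 to 101430313, plus strand). Krt19 is on chromosome 11 (100140810 to 100148665, minus strand). The promoters of the neighbours Krt8 and Krt18, both called higher in knockout ESCs, are shown with that of Krt7, the other of the 9 genes on that chromosome, as the 250 bases before the RefSeq start in GRCm38.p6, 5′ to 3′ on the gene's strand. They lie at chr15:102004343-102004592 for Krt8, chr15:102027966-102028215 for Krt18 and chr15:101412153-101412402 for Krt7. Capitals mark matches to the AP-2 motif GCCNNNGGC or the GATA motif AGATAA on either strand.
Krt8: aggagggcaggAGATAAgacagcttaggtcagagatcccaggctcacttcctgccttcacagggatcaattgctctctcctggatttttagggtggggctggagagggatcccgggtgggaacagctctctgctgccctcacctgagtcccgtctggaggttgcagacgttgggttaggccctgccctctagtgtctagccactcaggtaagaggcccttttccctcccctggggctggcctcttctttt
Krt18: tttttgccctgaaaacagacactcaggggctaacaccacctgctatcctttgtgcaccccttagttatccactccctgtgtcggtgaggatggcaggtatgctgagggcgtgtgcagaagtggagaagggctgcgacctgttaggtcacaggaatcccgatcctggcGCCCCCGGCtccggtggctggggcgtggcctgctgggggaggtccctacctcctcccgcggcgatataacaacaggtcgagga
Krt7: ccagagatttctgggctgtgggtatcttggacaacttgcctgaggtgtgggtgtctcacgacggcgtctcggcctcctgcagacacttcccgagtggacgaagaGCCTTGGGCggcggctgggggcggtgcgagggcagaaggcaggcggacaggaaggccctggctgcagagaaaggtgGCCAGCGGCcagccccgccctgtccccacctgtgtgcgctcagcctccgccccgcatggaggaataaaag
Krt8 held 1 GATA match, 239 to 234 bases before the start, and no AP-2 match, Krt18 held 1 AP-2 match and Krt7 held 2. In 250-base windows before all 32851 RefSeq starts of the table, 13.7% held the AP-2 letters and 9.99% the GATA letters. No window of the 3 held TTTATG (CDX) or TATAAA, found in 10.8% and 12.4% of all windows, and none of the matches overlapped another motif. A match describes letters only.

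Krt8, the type II keratin of most simple epithelia, stood at 47.23 and 58.73 CPM in control and at 125.8 and 127.5 CPM in knockout ESCs. EBs had 68.82 and 64.46 CPM (control) and 82.46 and 88.87 CPM (knockout). Knockout libraries were above controls at both stages, by a wider margin in ESCs. The rise in ESCs was 1.25 ± 0.12 on the log2 scale (adjusted p = 8.2e-05), or 2.39-fold. In EBs the difference was 0.36 ± 0.11 and did not pass (adjusted p = 0.0913). It passed with only the EB groups fitted and without the low-count filter. Of 12 other settings, fits with a library left out aside, 8 did not call it either. Whichever library was left out, the estimate lay between 0.31 and 0.42. The difference between the stages was -0.89 ± 0.16 (EB effect minus ESC effect, adjusted p = 0.029). In knockout cells Krt8 fell from ESCs to EBs by -0.56 ± 0.11 (adjusted p = 0.00876; 0.116 without knockout EB replicate 1), while in control cells its difference was 0.33 ± 0.12 (adjusted p = 0.0763).

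Krt18, the type I partner of KRT8, had 40.47 and 47.42 CPM in control and 99.16 and 101.0 CPM in knockout ESCs. Its EB levels were 73.73 and 75.36 CPM (control) and 92.4 and 108.0 CPM (knockout). Control ESCs were thus lowest, control EBs intermediate, and the 2 knockout groups overlapped. The rise with knockout was 1.18 ± 0.11 in ESCs (adjusted p = 0.000108). In EBs it was 0.43 ± 0.11 at an adjusted p of 0.0467, a call that was lost without any 1 of 6 libraries (without knockout EB replicate 2, for example, 0.31 at an adjusted p of 0.395) and held without either knockout ESC library. Control differentiation raised Krt18 by 0.76 ± 0.11 (adjusted p = 0.00139), and in knockout cells the change was 0.0013 on the log2 scale (SE 0.11, adjusted p = 0.995). The difference between the knockout effects was -0.76 ± 0.16 (adjusted p = 0.0478). For Krt8 and Krt18 alike the call on this difference was lost without any 1 of 6 libraries, that is all but the knockout ESC libraries. Over all genes, those 6 fits called fewer than the fit with every library. The fits without a knockout ESC library also leave 1 library in a group and called more. Why the calls were lost was not tested. Whichever library was left out, the estimate lay between -1.06 and -0.74 for Krt8 and between -0.87 and -0.64 for Krt18.

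Krt19, the smallest type I keratin, had 14.33 and 16.09 CPM in control and 30.04 and 28.82 CPM in knockout ESCs. In EBs it had 13.26 and 21.72 CPM (control) and 27.26 and 28.84 CPM (knockout). All 4 knockout libraries were above all 4 controls, and the knockout groups overlapped. The rise in ESCs was 0.95 ± 0.2 (adjusted p = 0.011), lost without control ESC replicate 1 (0.138) or replicate 2 (0.103). The difference in EBs was 0.69 ± 0.2 and did not pass (adjusted p = 0.0723), and it depended on which control was kept: it was 1.08 (adjusted p = 0.025) without control EB replicate 2, the higher one, and 0.36 (adjusted p = 0.38) without control EB replicate 1. The difference between the stages was -0.26 ± 0.29 (adjusted p = 0.788).

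Krt7, a type II keratin of trophoblast and ducts, was low. ESCs held 3.908 and 3.993 CPM (control) and 2.698 and 3.931 CPM (knockout). EBs held 3.912 and 3.059 CPM (control) and 1.506 and 1.674 CPM (knockout). The knockout EB libraries lay below the other 6. The difference in EBs was -1.13 ± 0.33 and narrowly missed the test (adjusted p = 0.0691). It passed with the GC trend of each library removed (adjusted p = 0.0282) and with only the EB groups fitted (0.046). It did not by DESeq2 (adjusted p = 0.192), with the replicate block (0.099) or without the low-count filter (0.0931). Without knockout EB replicate 1 the difference was -1.05, and it lay between -1.29 and -0.94 whichever library was left out. In ESCs the difference was -0.25 ± 0.3 (adjusted p = 0.644).

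Summed per length, the 4 keratins came to 60.6 and 72.2 CPM per kb in control and 150.0 and 152 in knockout ESCs, and to 94.2 and 97.5 in control and 121 and 136 in knockout EBs. The groups did not overlap. Krt8 relative to Krt18 per length was 0.856 and 0.909 in control ESCs and 0.931 and 0.926 in knockout ESCs, but 0.685 and 0.628 in control EBs and 0.655 and 0.604 in knockout EBs. All 4 ESC libraries were therefore above all 4 EB libraries in this ratio, in both genotypes. The ratio was formed after the levels had been seen and no test was made of it. Krt7 made up 1.85% to 2.25% of the type II level in control ESCs and 0.505% and 0.52% in knockout EBs. The size of this share depends on the long exon length given for Krt7 and may be too low.

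**Figure D3:**
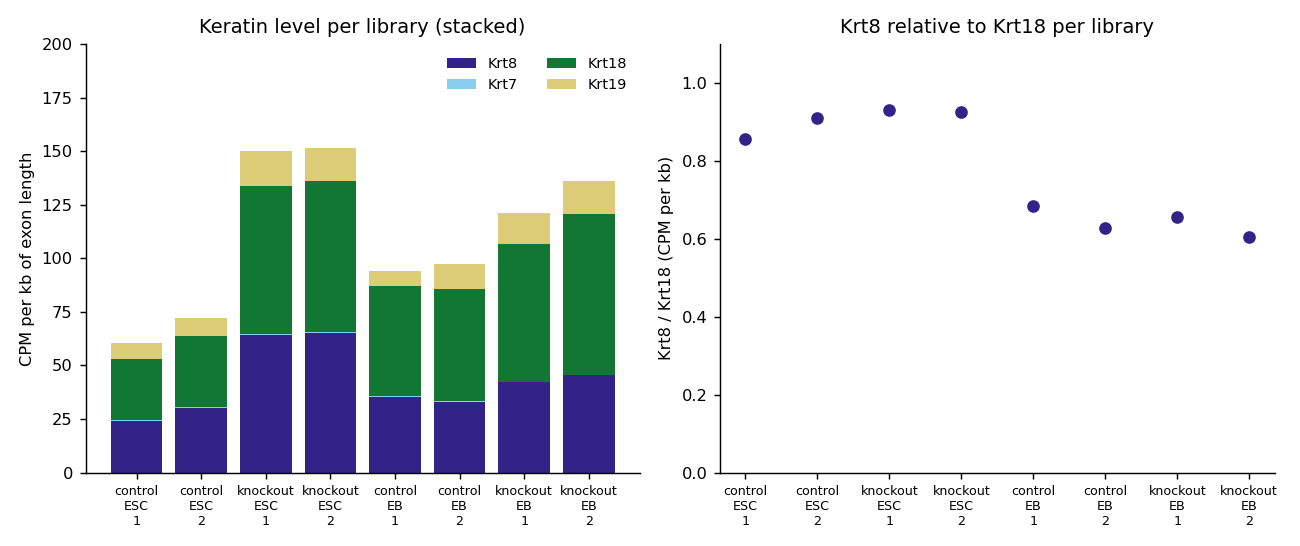
Left, stacked level of the 4 keratins in CPM per kb of exon in each library; right, the ratio of Krt8 to Krt18 on the same scale, both axes from 0. The total is highest in knockout ESCs (150.0 and 152 CPM per kb), and the ratio is 0.856 or more in ESC libraries and 0.685 or less in EB libraries.

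The keratin results were set beside the libraries that stood apart. With each library's GC trend removed, the knockout changes in ESCs were 1.35 for Krt8, 1.26 for Krt18, 1.05 for Krt19, 2.09 for Gata3 and -2.04 for Tfap2c on the log2 scale. Without knockout ESC replicate 2 they were 1.24, 1.16, 0.97, 1.68 and -1.89. In EBs the same GC correction ended the call of Krt18 (0.39, adjusted p = 0.0512) and called Krt19 higher (0.68, adjusted p = 0.0312) and Krt7 lower. Without knockout EB replicate 1, the library with liver transcripts, the knockout differences in EBs were 0.42 for Krt8, 0.54 for Krt18 and 0.73 for Krt19, all as large as with it, with adjusted p of 0.273, 0.0962 and 0.241. The table lists a pseudogene, Krt8-ps, at no more than 0.733 CPM. The sources used here do not say how reads that match several genes were treated, so reads shared with processed copies of the keratins could have been lost or misplaced.

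Markers of the extraembryonic endoderm, a yolk sac lineage whose cells also make simple keratins, rose with the knockout, as Krt8, Krt18 and Krt19 did in ESCs. Of 22 such genes, 20 rose and 0 fell in knockout ESCs and 19 rose and 0 fell in knockout EBs (edgeR; DESeq2 also called 0 lower, and 0 were lower at an unadjusted p below 0.05), with medians of 1.9 and 0.99 against -0.03 and 0.0 for all genes. Without knockout ESC replicate 2 there were 20 higher in ESCs, and without knockout EB replicate 1 there were 10 higher in EBs, with a median of 1.01. The list was chosen with these results known and is no independent evidence. Summed, it came to 3801 and 3971 CPM in control and 16579 and 13560 CPM in knockout ESCs, and to 4419 and 4672 against 8620 and 9364 CPM in EBs. None of its genes was at 0 in every library. The order of the groups was the same as that of Krt8, but not as that of Krt18 and Krt19, whose knockout groups overlapped. From ESCs to EBs in knockout cells 7 of the 22 genes rose and 11 fell (edgeR), with a median log2 change of -0.64. There the change was -0.56 for Krt8, 0.0013 for Krt18 and -0.07 for Krt19. Dab2, an endocytic adaptor of this lineage, was at 190 and 193 CPM in control and 804 and 831 CPM in knockout ESCs. The part of these cells in the keratin levels was not tested.

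**Figure D4:**
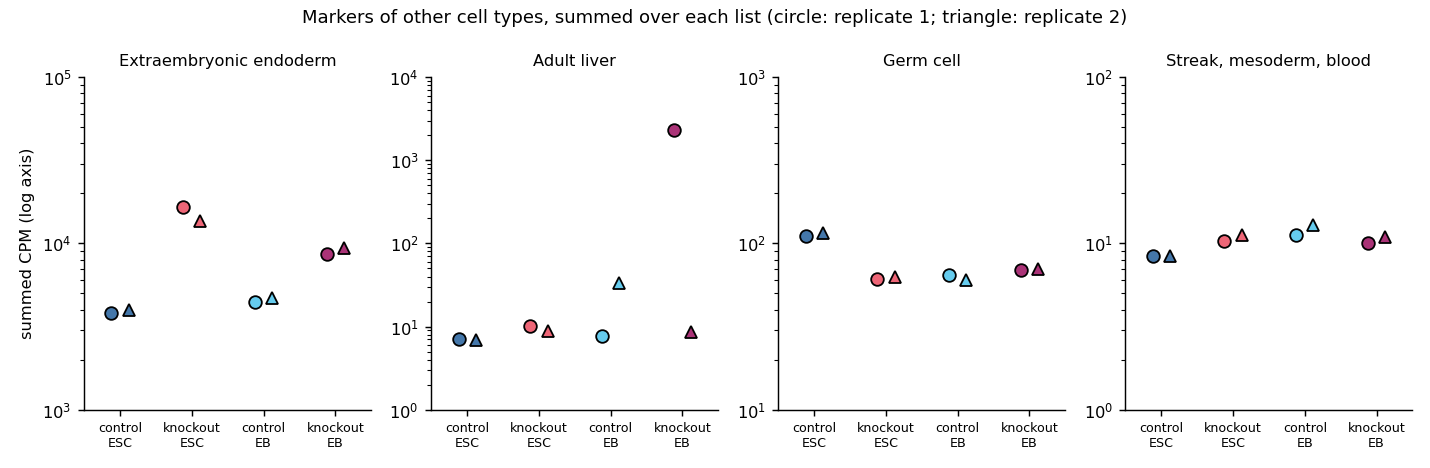
Summed CPM of marker lists of other cell types in each library on log axes (circles replicate 1, triangles replicate 2). The 22 extraembryonic endoderm genes sum to 3801 to 4672 CPM in control and 8620 to 16579 CPM in knockout libraries, the 18 liver genes stand out in knockout EB replicate 1 alone (2307 CPM), and the germ cell list is highest in control ESCs (111 and 115 CPM).

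Most other trophoblast genes did not pass the test for the knockout, and neither did most genes of any kind. Over all genes tested, 8.3% rose and 6.2% fell in knockout ESCs, and 4.75% rose and 2.04% fell in knockout EBs. These are the shares to set beside the list counts here and below. Of 15 further trophoblast transcription factors 13 were tested. In knockout ESCs 1 rose (Msx2, 1.29 ± 0.33), 1 fell (Sox15, -1.22 ± 0.18) and 11 did not pass. In knockout EBs 0 rose and 0 fell by edgeR. There 3 were higher and 2 lower at an unadjusted p below 0.05, and DESeq2 called 1 in each direction. With the GC trend of each library removed, 2 were called higher and 1 lower in knockout ESCs. In EBs the same correction called 2 higher, with Tead4 among them (0.58, adjusted p = 0.0324), and 1 lower. Without knockout ESC replicate 2 the count was 3 higher and 1 lower in ESCs, with Tead4 at 0.11 (adjusted p = 0.736) and 3 higher and 1 lower in EBs. Without knockout EB replicate 1 it was 0 and 0 in EBs. Elf5, which secures the trophoblast fate, had at most 0.246 CPM in any library. Eomes, shared by trophoblast and primitive streak, was at 7.74 and 9.21 CPM in control and 11 and 10.5 CPM in knockout ESCs, and rose with differentiation in both genotypes (control 1.57 ± 0.16, knockout 1.43 ± 0.15). Tead4, the partner of YAP upstream of Cdx2, fell with differentiation in control cells (-1.3 ± 0.24, adjusted p = 0.00484). For the knockout it did not pass in ESCs (-0.21 ± 0.23) or, before the GC correction, in EBs (0.59 ± 0.25). Hand1, a giant cell factor, had at most 3.43 CPM and passed in no comparison.

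Of 22 products of trophoblast, 19 were tested. In knockout ESCs Peg10 rose (1.03 ± 0.08), 2 fell (Cldn4, -1.14 ± 0.2, and Cdh3, -0.89 ± 0.19) and 15 did not pass. In knockout EBs 3 rose (Peg10, 0.62 ± 0.08; Fgfbp1, 1.74 ± 0.35; Bmp4, 0.66 ± 0.15), 0 fell (0 by DESeq2, 1 at an unadjusted p below 0.05) and 16 did not pass. These counts depended on the GC trend: with it removed, 5 of the 19 were called higher and 3 lower in knockout ESCs. In knockout EBs 5 were then called higher and 1 lower (Cldn4, -0.52). Without knockout EB replicate 1, Peg10 (0.71) and Fgfbp1 (2.03) were still called and Bmp4 was not (0.58, adjusted p = 0.227). Peg10 is an imprinted gene needed for the placenta. The placental hormone gene Prl3d1 had at most 0.43 CPM, Prl2c2 at most 0.0614 CPM and the spongiotrophoblast gene Tpbpa at most 0.43 CPM. These 3 products of mature trophoblast were thus at or near 0 in all 8 libraries.

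Other keratins split. Of 17 listed, 8 were tested. In knockout ESCs Krt13 (2.65 ± 0.6) and Krt23 (2.01 ± 0.46) rose, and Krt17 (-1.32 ± 0.19) and Krt42 (-0.82 ± 0.19) fell. The genes that rose were scarce: mean levels in control and knockout ESCs were 0.358 and 2.4 CPM for Krt13 and 0.899 and 3.68 CPM for Krt23. Those of Krt17 were 30.2 and 12.1 CPM. Summed, the 17 genes came to 62.0 and 74.6 CPM in control and 46.4 and 42.2 CPM in knockout ESCs. Krt42, a type I keratin, was at 29 ± 1.78 CPM in control and 16.4 ± 2.18 CPM in knockout ESCs, and at 4.53 ± 0.633 against 6.78 ± 1.49 CPM in EBs (mean ± SD, n = 2). It fell with differentiation in both genotypes, with log2 changes of -2.67 ± 0.21 and -1.27 ± 0.21. In knockout EBs 0 rose and 0 fell (0 by DESeq2, 2 higher and 0 lower at an unadjusted p below 0.05). The basal keratins of stratified epithelium were scarce, with at most 0.437 CPM of Krt5 and 2.18 CPM of Krt14, and Trp63, their regulator, was at most 0.332 CPM.

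Desmosomes and linkers tie keratin filaments to the cell surface. Of 11 such genes, 10 were tested. The desmosomal cadherins Dsg2 (0.6 ± 0.1) and Dsc2 (1.16 ± 0.24) rose in knockout ESCs, the linker Eppk1 fell (-0.87 ± 0.24) and 7 did not pass. Without knockout ESC replicate 2 the call of Eppk1 was lost, at -0.56. With the GC trend of each library removed, 2 genes were called higher and 4 lower in knockout ESCs, and 2 higher and 1 lower in knockout EBs. Eppk1 was among those lower at both stages (-0.83 and -0.86). In knockout EBs Dsg2 (0.4 ± 0.1) and Pkp2 (0.47 ± 0.1) rose, 0 fell (0 by DESeq2, 2 at an unadjusted p below 0.05) and 8 did not pass. Without knockout EB replicate 1 both calls were lost, at 0.38 (adjusted p = 0.301) and 0.46 (adjusted p = 0.156).

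The genes whose profile was most like that of each well-expressed member were found by Pearson's r of log2 CPM over the 8 libraries, which form 4 groups of 2, among 10617 other genes averaging 5 CPM or more. Tfap2c was closest to Fblim1 (r = 0.991), Gfpt2 (0.991) and Hk2 (0.988), which encode a filamin-binding protein, an enzyme of the hexosamine pathway and a hexokinase. Hk2 stood at 387 and 401 CPM in control and 273 and 254 CPM in knockout ESCs, with 204 to 211 CPM in EBs. Krt8 was closest to Ano10 (0.992), the amyloid precursor gene App (0.989) and the transcription factor gene Ets1 (0.988). App stood at 32.4 and 37.5 CPM in control and 89.1 and 79.8 CPM in knockout ESCs, and at 41.4 to 58.1 CPM in EBs. Krt18 was closest to Lmbrd1 (0.987), the pseudogene Atp6v0c-ps2 (0.986), whose reads may come from its parent gene, and Wls (0.985), which encodes the carrier for WNT secretion. Krt19 was closest to Psmd8 (0.983), Cptp (0.972) and the co-receptor gene Tgfbr3 (0.967). Psmd8 ranged only from 162 to 174 CPM, so likeness of profile is not likeness of size. Krt8 and Krt18 had an r of 0.863 with each other, and Krt8 ranked 316 among the genes most like Krt18. These correlations share libraries and are given with no test.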

How the data were processed

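Expression was measured by poly(A) RNA sequencing in 8 libraries, 2 in each of 4 groups, assigned by their labels. Per the file headers, the authors deposited raw read counts for each gene beside its exon length, in whole numbers. HISAT2, featureCounts, DESeq2 and mm10 appear in the submitters' processing notes, and strand setting, read pairing and versions were not stated there. No antisense or overlapping gene of the set had more than 8 counts in all.

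The members, lists and tests were chosen with earlier results of these data known. IDs were matched to symbols by gene ID (55141 of 55401). Genes kept by filterByExpr (17125) were scaled by TMM and fitted with edgeR 4.0.16 (R 4.3.3, limma 3.58.1), with 1 mean per group over all 8 libraries, and tested by quasi-likelihood. P-values were adjusted by Benjamini-Hochberg over all genes, and genes called at an adjusted p below 0.05. The SE was taken from the estimate and its F value. The biological coefficient of variation was 0.132. Levels are CPM on TMM-scaled library sizes, and CPM divided by exon length in kb. The rule for named genes was all 9 members, up to 4 called genes of each list and comparison with the smallest adjusted p, Eomes, Elf5, Tead4 and Hand1 in any case, and the 3 most alike profiles, without unnamed gene models; other genes named for their level alone were chosen after their values were seen. Alternatives were median-of-ratios factors (DESeq2 1.42.0), library totals, other filters, a block for replicate number, a fit of only the groups compared, DESeq2, a GC correction from GENCODE M21 transcript sequences (spline with 5 degrees of freedom), a fold change of at least 2, and each library left out (for gene lists, chosen after seeing the data, the libraries that stood apart), where a lone library is assumed to vary like the other groups. The fit was tested on simulated data. The result of 1 gene among the trophoblast products is not reported here.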

Additional observations from a re-analysis of the deposited data

Results flagged for a closer look

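The knockout effect differed between EBs and ESCs for 3 of the 8 tested members by a test of the difference itself (edgeR's quasi-likelihood test, EB effect minus ESC effect); 0.742% of all genes passed with a higher and 0.642% with a lower value. For Tfap2c the difference was 1.85 on the log2 scale: knockout libraries were lower than controls in ESCs, and the groups overlapped in EBs. For Krt8 it was -0.89 and for Krt18 it was -0.76, with knockout libraries above controls at both stages and the wider gap in ESCs. All 3 calls were lost without any single control library, as described above. The extraembryonic endoderm list had a median of -1.01 in the same comparison, with 9 of 22 genes called lower (15 with the GC trend removed). Its median was -0.93 without knockout EB replicate 1 and -1.22 without knockout ESC replicate 2. The part of this list was not tested.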

How the results depend on the processing

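The rises of Krt8 and Krt18 and the fall of Tfap2c in knockout ESCs, and the fall of Tfap2c in control differentiation, kept direction and call in all alternatives run. The rise of Krt19 in ESCs was lost at a minimum fold of 2, and those of Gata3 and Krt19 without either control ESC library. In knockout ESCs the number of members higher was 2 to 4 when 1 library was left out. In knockout EBs it was 0 to 3 when 1 library was left out, 0 with median-of-ratios factors, 0 with a mean of at least 1 CPM, 3 without the low-count filter, 2 with the GC trend removed and a replicate block, 2 with only the EB groups, and 0 at a fold of 2. The number lower there was 0 to 1 when 1 library was left out, and 1 with the GC trend removed, with or without the replicate block, and with only the EB groups. With the GC trend removed the number higher was still 1, but it was Krt19 in place of Krt18. In control differentiation the number higher was 1 to 2 when 1 library was left out, 2 with only the control groups and 0 at a fold of 2. In knockout differentiation the number lower was 0 to 3 when 1 library was left out, 1 with only the knockout groups and 0 at a fold of 2. For the difference of effects the numbers were 0 to 1 higher and 0 to 2 lower when 1 library was left out, and 0 lower at a fold of 2.

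Signs turned for differences that had not passed. Tfap2a in control differentiation was between -0.12 (without control EB replicate 2) and 0.38 when 1 library was left out, and -0.032 without control ESC replicate 2. Krt19 was there between -0.21 (without control EB replicate 2) and 0.51, and its difference of effects between -0.58 and 0.14 (without control EB replicate 2). Krt18 in knockout differentiation was -0.0044 with median-of-ratios factors, -0.05 with library totals, -0.0039 without a filter, -0.0067 with a mean of at least 1 CPM, -0.0027 with the replicate block, -0.0022 by DESeq2, -0.23 with the GC trend removed (with or without the block) and between -0.11 (without knockout EB replicate 2) and 0.12 when 1 library was left out. The causes were not tested.

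Over all genes, the calls higher and lower for the knockout in EBs were 1442 and 652 without the low-count filter and 1449 and 1271 with only the EB groups (814 and 350 as reported). For the knockout in ESCs they were 951 and 407 with only the ESC groups (1421 and 1062). Control differentiation had 2490 and 2005 with the GC trend removed and 2932 and 2639 with only its groups (1472 and 1649), and knockout differentiation had 2171 and 1471 without the filter and 389 and 429 with only its groups (1410 and 1217). The difference of effects had 361 and 362 with the GC trend removed, 448 and 256 without the filter and 204 higher by DESeq2 (127 and 110).

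Same-numbered replicates did not deviate together (r from -0.238 to 0.0373 across genes), so the numbers are not taken to pair samples. With the replicate block, 4 members were higher and 1 lower in knockout ESCs and 1 and 0 in knockout EBs, as without it. With the EB libraries alone, 3 members were higher with the straight and 3 with the crossed pairing, a choice made after seeing the data, and over all genes the crossed pairing gave 1817 higher and 1491 lower against 1445 and 1202. Low counts limit Cdx2, Gata3, Gata2, Tfap2a and Krt7.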

Other observations

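Of 4 further intermediate filament genes, Lmna, which encodes the nuclear lamins A and C, rose in knockout ESCs (0.93 ± 0.19 on the log2 scale, adjusted p = 0.00832) and Vim, Nes and Des did not pass. Lmna stood at 38.2 ± 1.2 CPM in control and 72.8 ± 25.2 CPM in knockout ESCs, and at 34.2 ± 0.945 against 55.1 ± 0.0778 CPM in EBs (mean ± SD, n = 2). Vim, the filament of mesenchyme, fell from ESCs to EBs in control (-0.92 ± 0.1) and knockout cells (-0.93 ± 0.1), and Nes, the filament of neural progenitors, rose in control cells (0.97 ± 0.18).

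The 8 genes of streak, mesoderm and blood summed to 8.35 to 12.9 CPM in all libraries, and the 10 of surface ectoderm and neural crest to 25.7 to 43.6 CPM. Most of the latter sum was Grhl3, a factor of surface epithelium, at 36.8 ± 2.56 CPM in control ESCs and between 20.7 and 23.1 CPM in the means of the other 3 groups. It fell in knockout ESCs (-0.68 ± 0.16, adjusted p = 0.0193) and in control differentiation (-0.8 ± 0.16, adjusted p = 0.00775). In control differentiation Tal1, a partner of GATA factors in blood, rose (1.79 ± 0.54, adjusted p = 0.0436), from 1.47 and 0.676 CPM to 3.71 and 3.53 CPM, and it stood at 1.43 and 1.6 CPM in knockout EBs.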
